A study of Mus musculus with 7 samples.

Results

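The imprinted Dlk1-Dio3 miRNA cluster was followed in the edge of mouse wounds. The rule for its members uses miRNA numbers and no measured value, although it was set with earlier results of these data known. It takes all human or mouse assays on the plate that carry 1 of 43 numbers of the cluster, in any letter or arm. This gave 39 of 306 miRNA assays, standing for 31 of the 43 numbers and 33 hairpins. Matched by name, all 39 have a hairpin on mouse chromosome 12, which follows from a rule built on the numbers of the cluster. Wound edge tissue had been taken from C57Bl6 mice 3 days after wounding, from 4 non-ischemic wounds and from 3 ischemic wounds made in a bipedicle flap (skin that keeps only its end attachments and is poorly perfused between them). The labels give no genotype other than the strain, no age and no sex, and do not say whether each sample is a separate animal. The p-values cover sample-to-sample spread only, some of which may be technical. Mature miRNAs were read by real-time PCR as a threshold cycle (Ct), which falls as product rises and is set to 40 where no product appeared.

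The cluster lies between the genes Dlk1 and Dio3 and is imprinted: its miRNAs are made from the chromosome inherited from the mother, along with the long noncoding RNAs Meg3, Rian and Mirg. Some hairpins lie antisense to Rtl1, a retrotransposon-derived gene expressed from the father's chromosome, and their miRNAs pair with its transcript and repress it. The cluster is known for high expression in embryo, placenta and brain and in muscle progenitors, and for low expression in most adult tissues.

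The comparison rests on 5 members, those that crossed threshold before cycle 35 in 3 samples or more. Their mature sequences are shown first, 5′ to 3′, with the seed (bases 2 to 8, which pair with targets) in capitals. The assay names give an arm for miR-434-3p only. The others were matched to the arm for which the plain name was used in older miRBase releases.
miR-337: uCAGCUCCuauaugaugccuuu
miR-127: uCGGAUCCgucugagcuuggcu
miR-434-3p: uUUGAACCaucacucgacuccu
miR-379: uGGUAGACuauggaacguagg
miR-376a: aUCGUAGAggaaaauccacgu
The sequences and positions are those of RefSeq on GRCm38.p6, all on the plus strand, at chr12:109585850-109585871, chr12:109592888-109592909, chr12:109594565-109594586, chr12:109709065-109709085 and chr12:109723824-109723844 in that order. A mature RefSeq sequence was found for 36 of the 39 members, and these 36 had 36 different seeds. No seed was shared among these 36, and miR-376c, miR-485-5p and miR-487b were not compared. Near relatives differ within the seed. miR-376a and miR-376b have the same length and differ at 3 bases (G4A, A13C and G20U, counted from the 5′ end, miR-376a first), of which 1 lies in the seed. miR-379 and miR-411 differ at 7 bases, of which G2A lies in the seed. The relatives are shown because their assays gave other results than those of miR-376a and miR-379.
miR-376b: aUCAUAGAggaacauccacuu
miR-411: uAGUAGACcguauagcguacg

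Little of the cluster was detected in the wound edge. Of the 39 members, 5 reached that limit in 3 or more samples (12.8%), against 33.7% of all 306 miRNA assays. A further 4 members, miR-376c, miR-433, miR-487b and miR-541, were below 35 in 1 sample each. Another 15 gave product only at a Ct of 35 or later, and 15 gave no product in any sample (38.5%, against 33.7% of all assays). Members without product were miR-136, miR-154, miR-323, miR-369-3p, miR-370, miR-377, miR-380-3p, miR-382, miR-409, miR-411, miR-412, miR-433-5p, miR-485-5p, miR-494 and miR-679. The number of members below 35 was 5, 5, 5 and 4 in non-ischemic samples 1 to 4 and 2, 8 and 4 in ischemic samples 1 to 3. The highest and the lowest count thus both lay in the ischemic group. Ischemic sample 2, with 8, also had the most miRNAs below 35 of all assays (106, against 91 to 103 in the other samples). All 13 members whose assay is named for the human miRNA stayed outside the 5, whereas 5 of the 26 with a mouse name were among them. Whether the human assays read the mouse sequence equally well was not tested, and an assay without product is not shown to lack its miRNA.

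**Figure D1:**
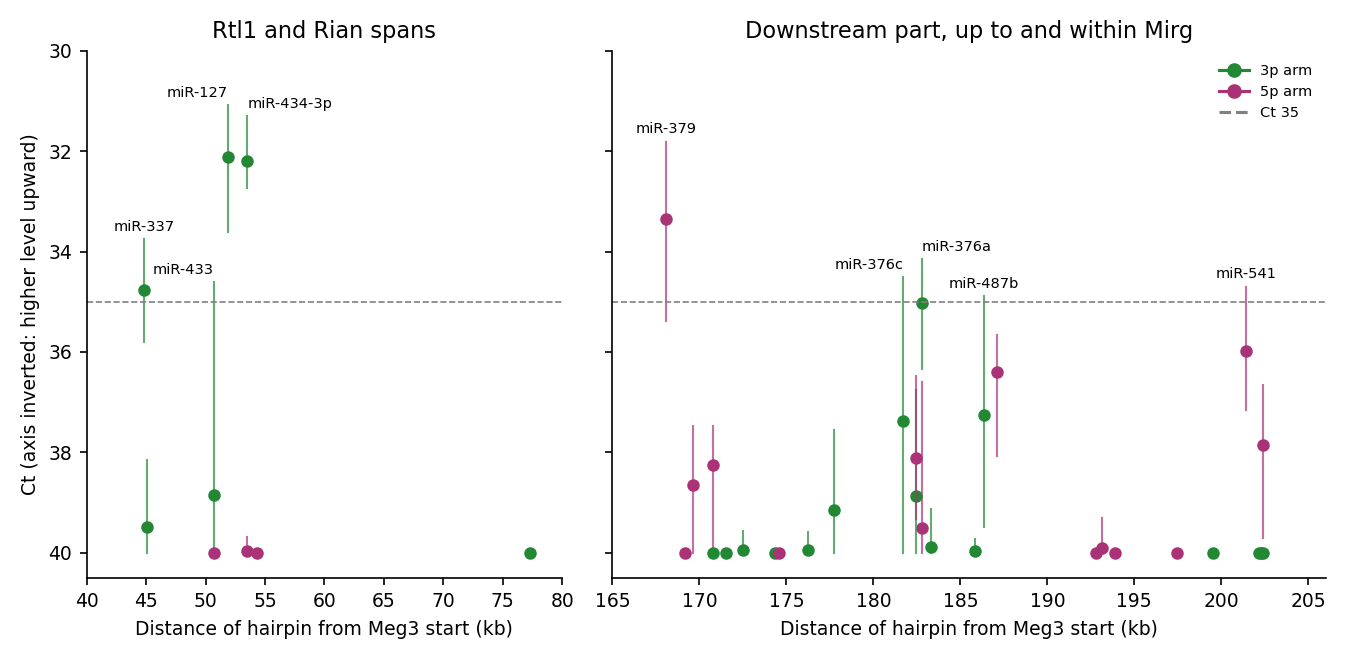
Ct of the 39 cluster assays against the distance of their hairpin from the start of Meg3 in kilobases, in 2 stretches of the region. Points are means of 7 samples, vertical lines run from the lowest to the highest Ct, and the Ct axis is inverted. Means of miR-127 (32.1) and miR-434-3p (32.2) are the lowest, and many assays downstream sit at 40.

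By position, the share of assays among the 5 was highest within the span of Rtl1. There, 3 of 8 assays were among the 5 (miR-337, miR-127 and miR-434-3p), whereas it was 2 of 23 between Rian and Mirg (miR-379 and miR-376a) and 0 of 7 within Mirg. The 1 assay within Rian alone, miR-370, gave no product. Counting any product, the share was 75% of assays within Rtl1, 69.6% between Rian and Mirg and 28.6% within Mirg. These counts describe the plate, since assays differ in their efficiency and several share a hairpin.

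Both arms of the hairpin were on the plate for 6 hairpins. The clearest contrast was that of Mir434, with Ct values of 31.3 to 32.7 for the 3p arm in all 7 samples and product for the 5p arm in 1 sample only, at 39.7. The Mir434 hairpin, chr12:109594506-109594599 on the plus strand of GRCm38.p6, is shown with the 3p arm in capitals.
Mir434: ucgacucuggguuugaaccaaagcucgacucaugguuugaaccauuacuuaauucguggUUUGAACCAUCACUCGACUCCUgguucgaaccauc
The arms share a run of 9 bases, which starts at base 14 of the 5p arm and at base 1 of the 3p arm. For Mir376a the 3p arm had a Ct below 35 in 5 samples, and the 5p arm (miR-376a*) gave product in 1, at 36.6. For Mir433 the 3p arm gave product in 3 samples and the 5p arm in 0. The order was opposite for Mir369 and Mir380, where the 5p arm gave late product in 7 and 6 samples and the 3p arm in 0. For Mir376b the 5p arm (miR-376b*) gave product in 7 samples and the 3p arm in 4, all later than 36. The arms of Mir376a, Mir380 and Mir433 were read by assays of different species names: human for miR-376a*, miR-380-5p and miR-433, and mouse for their partners. The other 3 hairpins had mouse assays for both arms. Precursors of the miR-376 group are known targets of A-to-I RNA editing.

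Levels are given below as log2 relative to 5S rRNA (Ct of 5S rRNA minus Ct of the assay), so that a higher, less negative value is a higher level. Over all tested miRNAs, 0 of 103 passed an adjusted p of 0.05 in limma (0%), and 76.7% had a lower mean in ischemic samples, with a median difference of -0.35. Of the 5 cluster members 0 passed. Means were lower for 4 of them and higher for miR-434-3p, with a median difference of -0.85. Of the lower members, miR-337, miR-376a and miR-379 met the 3-sample limit through non-ischemic samples alone. They were below 35 in 3, 4 and 4 non-ischemic samples and in 1, 1 and 2 ischemic samples. The filter can thus favour lower ischemic values, and -0.85 is not free of it. With a Ct below 35 required in all 7 samples, 2 members were left, with a median of -0.37 against -0.31 over 76 miRNAs. With no filter on late Ct the median was -0.26 over the 24 members with any product and -0.28 over all 203 miRNAs with product, so the lower median was not seen there. An unadjusted p under 0.05 was reached by 1 of the 5, miR-376a, against 18.4% of all tested miRNAs. The groups overlapped in 5 of 5, and did not overlap for 17.5% of all tested miRNAs. In bulk tissue, fewer cells of a type and less RNA per cell cannot be told apart.

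**Figure D2:**
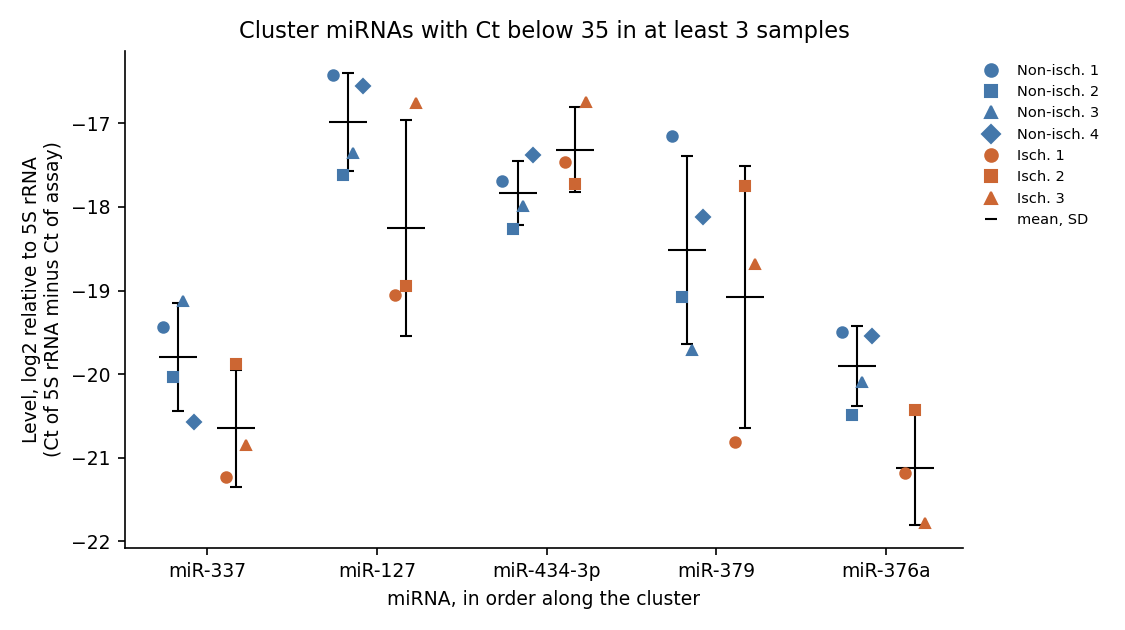
Level of the 5 tested cluster miRNAs relative to 5S rRNA on a log2 scale, in order along the cluster. Each point is a sample, with 4 non-ischemic samples in blue and 3 ischemic samples in orange, and bars give the mean and SD. The groups overlap for every one of the 5, and ischemic sample 3 lies at the upper end for miR-127 and miR-434-3p but at the lower end for miR-376a.

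miR-127, which lies antisense to Rtl1 and represses it in mouse placenta, was the member with the lowest mean Ct. Its level was -16.42, -17.61, -17.35 and -16.56 in non-ischemic samples 1 to 4 and -19.05, -18.95 and -16.76 in ischemic samples 1 to 3. Ischemic samples 1 and 2 were below all 4 non-ischemic samples, while ischemic sample 3 lay within their range. The mean was -16.99 ± 0.59 (SD, n = 4) in non-ischemic and -18.25 ± 1.29 (n = 3) in ischemic samples, a difference of -1.26 ± 0.62 (SE, limma adjusted p = 0.351), or 2.40-fold lower. Without ischemic sample 3 the difference was -2.01 (limma adjusted p = 0.0215), where 5.88% of the 102 miRNAs tested passed. It shrank to -0.86 without ischemic sample 1 and to -0.91 without ischemic sample 2 (limma adjusted p = 0.603 and 0.564). Ischemic sample 3 was also the sample with the fewest leukocyte miRNAs: the summed level of miR-223, miR-142-3p and miR-142-5p, in parts per 1000000 of 5S rRNA on the linear scale, was 145 there, 2977 and 4445 in ischemic samples 1 and 2, and 3093 to 4826 in non-ischemic samples. All 3 markers gave product in all 7 samples. In non-ischemic samples the mean log2 level was -8.18 for miR-223, -16.17 for miR-142-3p and -17.87 for miR-142-5p. The sum thus mostly reads miR-223. The part of these markers in the result was not tested.

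miR-434-3p, encoded 1660 bases downstream of the miR-127 hairpin and likewise antisense to Rtl1, was the only tested member with a higher mean in ischemic samples. Its level was -17.69, -18.27, -17.98 and -17.38 in non-ischemic samples and -17.47, -17.73 and -16.74 in ischemic samples. Ischemic sample 3 was highest of all 7, and ischemic samples 1 and 2 lay within the non-ischemic range. The difference was 0.52 ± 0.40 (SE, limma adjusted p = 0.612, 95% interval from -0.40 to 1.43). It was 0.23 without ischemic sample 3. Muscle miRNAs were highest in the same sample. The summed level of miR-1, miR-133a, miR-133b and miR-206 was 875 per 1000000 of 5S rRNA in ischemic sample 3, 241 and 405 in ischemic samples 1 and 2, and 159 to 212 in non-ischemic samples, with all 4 markers below 35 in all samples. Their part in the result was not tested.

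miR-337 lies upstream of these within the span of Rtl1. Its level was -19.44, -20.04, -19.13 and -20.58 in non-ischemic samples and -21.23, -19.87 and -20.85 in ischemic samples. Ischemic samples 1 and 3 were below all non-ischemic samples, and ischemic sample 2 was within their range. The difference was -0.85 ± 0.50 (SE, limma adjusted p = 0.422), and did not pass. Its Ct was past 35 in 3 of the 7 samples. The difference was -0.56 without ischemic sample 1, also -0.56 with a Ct above 35 set to 35, and -0.50 after global median normalization.

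miR-379 is the first hairpin of the large downstream group, whose transcription follows neuronal activity in rat neurons. Its level was -17.15, -19.08, -19.71 and -18.12 in non-ischemic samples and -20.81, -17.75 and -18.68 in ischemic samples. It varied most of the 5, over 3.66 log2 units, and most of that range was seen within each group. The difference was -0.56 ± 0.82 (SE, limma adjusted p = 0.789), and it turned to 0.30 without ischemic sample 1.

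miR-376a, of a group of near-identical hairpins further downstream, had the smallest p of the cluster. Its level was -19.49, -20.49, -20.09 and -19.54 in non-ischemic samples and -21.18, -20.42 and -21.78 in ischemic samples. Ischemic samples 1 and 3 were below all non-ischemic samples, and ischemic sample 2 lay just above the lowest of them. The difference was -1.22 ± 0.45 (SE, 2.34-fold lower, limma unadjusted p = 0.0248 and adjusted p = 0.219). With a Ct above 35 set to 35 the difference was -0.53, since ischemic samples 1 and 3 had a Ct of 35.8 and 36.3.

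**Figure D3:**
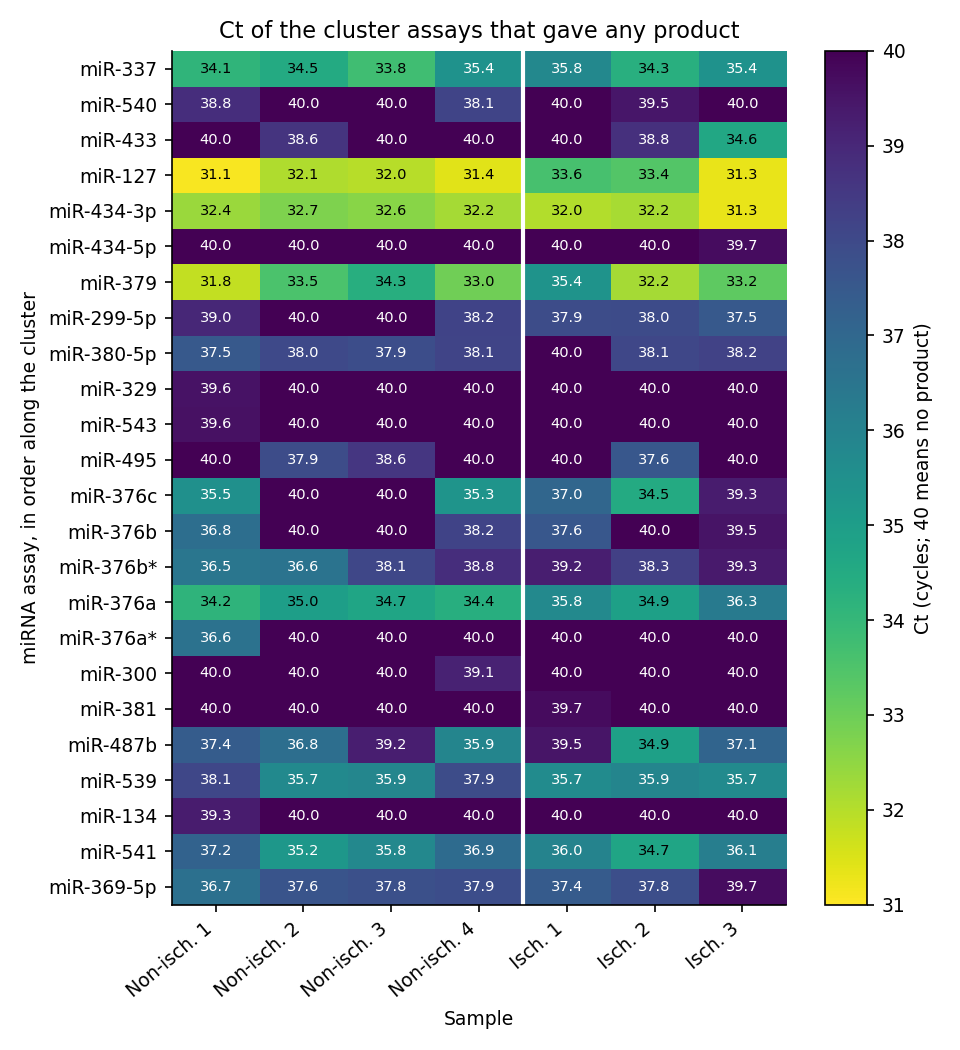
Ct of the 24 cluster assays that gave product in any sample, in order along the cluster, for 4 non-ischemic and 3 ischemic samples. Brighter cells are lower Ct and 40 means no product. The rows of miR-127, miR-434-3p and miR-379 are the brightest, and the value of miR-433 in ischemic sample 3 (34.6) stands alone in its row.

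The members outside the fit held mostly late values. miR-433, a further miRNA antisense to Rtl1, had a Ct of 34.6 in ischemic sample 3, product at 38.6 in non-ischemic sample 2 and at 38.8 in ischemic sample 2, and no product in the other 4 samples. That of miR-376c was 35.5, 40, 40 and 35.3 in non-ischemic samples 1 to 4 and 37.03, 34.5 and 39.3 in ischemic samples 1 to 3. miR-376c thus varied as much within each group as between them. The Ct of miR-487b was 37.4, 36.8, 39.2 and 35.9 in non-ischemic and 39.5, 34.9 and 37.1 in ischemic samples. The Ct of miR-541 was 37.2, 35.2, 35.8 and 36.9 in non-ischemic and 36.0, 34.7 and 36.1 in ischemic samples. For miR-376c, miR-487b and miR-541 the lowest Ct lay in ischemic sample 2, and the groups overlapped. miR-539 gave product in all samples, at 35.7 to 35.9 in the ischemic group and at 38.1, 35.7, 35.9 and 37.9 in non-ischemic samples 1 to 4. For miR-539 the samples that differed were thus non-ischemic samples 1 and 4. miR-299-5p gave product in 3 of 3 ischemic samples, at 37.5 to 38.0, and in 2 of 4 non-ischemic samples. miR-380-5p gave product in 4 of 4 non-ischemic samples, at 37.5 to 38.1, and in 2 of 3 ischemic samples, at 38.1 and 38.2. With no filter on late Ct, limma gave 0 of 203 adjusted calls (0%). An unadjusted p under 0.05 was then reached by miR-376a, miR-376b* and miR-299-5p, 3 of the 24 members with any product, where it was 10.3% of all 203.

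In the authors' deposited table of group means, cluster members stand at both ends. That table gives miR-433 a fold of 10.4, ischemic over non-ischemic, the highest of 306 miRNAs. It is a ratio of mean linear levels, and ischemic sample 3 was the only one of 7 samples with a Ct below 35. At the other end the authors' deposited table gives 0.268 for miR-376a* and 0.289 for miR-376b*, the eighth and the tenth lowest. The assay of miR-376a* gave product only in non-ischemic sample 1, and that of miR-376b* was past 36 in all 7 samples. The 15 members without product all have 0.916 in the authors' deposited table. With 40 in every sample that number holds only the Ct of 5S rRNA. For the 5 tested members the authors' deposited table gives 0.525 (miR-127), 0.559 (miR-337), 0.443 (miR-376a), 0.747 (miR-379) and 1.45 (miR-434-3p).

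The ratio of one member to another within a sample does not depend on the reference RNA. It was compared for all 10 pairs of the 5 tested members, a step added after the levels were seen. Efficiencies of the assays differ, so only the shift of a ratio between groups is read, not its sign. For miR-127 and miR-434-3p, the closest neighbours among the 5, the shift was the largest. The log2 ratio of miR-127 over miR-434-3p was 1.27, 0.65, 0.63 and 0.82 in non-ischemic samples and -1.58, -1.22 and -0.01 in ischemic samples. All ischemic samples lay below all non-ischemic samples. The difference was -1.78, or 3.43-fold, with a mean of 0.84 ± 0.30 (SD, n = 4) against -0.94 ± 0.82 (n = 3). The exact permutation p was 0.0286, the smallest that 35 splits allow (two-sided, n = 4 and 3), and 0.143 when adjusted over the 10 pairs. Without ischemic sample 3 the difference was -2.24 (exact permutation p = 0.0667, the smallest possible with 4 against 2). The ratio of miR-434-3p over miR-376a was 1.80, 2.23, 2.11 and 2.16 in non-ischemic samples and 3.71, 2.69 and 5.03 in ischemic samples, higher in all 3 ischemic samples. Its difference was 1.74, or 3.34-fold, with the same exact permutation p of 0.0286 (adjusted 0.143), and it was 1.13 without ischemic sample 3. With a Ct above 35 set to 35, as for miR-376a in ischemic samples 1 and 3, it was 1.05 (exact permutation p = 0.0286, adjusted 0.143). The other 8 pairs overlapped, with exact permutation p of 0.143 to 0.971. Groups that do not overlap were seen in 2 of 10 member pairs and in 15.4% of all 5253 pairs of tested miRNAs.

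**Figure D4:**
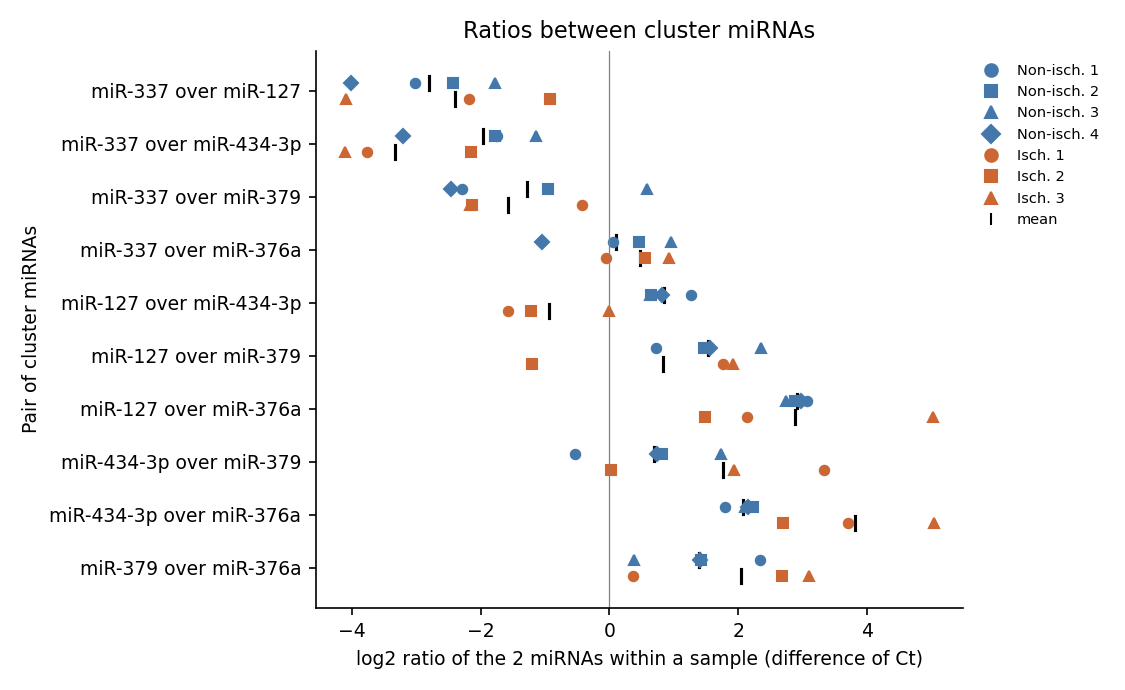
Log2 ratio of each pair of the 5 tested cluster miRNAs within a sample, from the difference of their Ct. Points are samples, 4 non-ischemic in blue and 3 ischemic in orange, and black ticks are group means. For miR-127 over miR-434-3p and for miR-434-3p over miR-376a the colours do not overlap, and for miR-127 over miR-376a the non-ischemic points lie between 2.74 and 3.07.

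The ratios among miR-127, miR-434-3p and miR-376a varied least across the non-ischemic samples. These 3 were picked for that after their values were seen, and any of their ratios follows from the others, so the values only describe them. The SD of the log2 ratio was 0.14 for miR-127 over miR-376a, 0.19 for miR-434-3p over miR-376a and 0.30 for miR-127 over miR-434-3p. In ischemic samples the same ratios had SDs of 1.89, 1.17 and 0.82. The widest was miR-127 over miR-376a, at 2.13, 1.48 and 5.02, with the high value in ischemic sample 3, where the Ct of miR-376a was 36.3. Pairs with miR-337 or miR-379 had SDs of 0.67 to 1.41 in non-ischemic samples. Over all 5253 pairs of tested miRNAs the median SD was 0.559 in non-ischemic and 1.1 in ischemic samples, so wider ischemic ratios were general. An SD under 0.3 in non-ischemic samples was found for 15.2% of all pairs and for 3 of the 10 member pairs. These 3 are the pairs picked above, and miR-127 over miR-434-3p, at 0.2955, is just under the limit. Their share therefore follows from the picking and is no comparison.

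Lists of marker miRNAs describe the tissue, and 0 of their members passed an adjusted p of 0.05 in limma. At an unadjusted p under 0.05, 3 of 4 muscle miRNAs and 1 of 2 erythroid miRNAs were higher in ischemic samples. At the same limit 2 keratinocyte, 1 fibroblast and 1 neural miRNA were lower, and 0 leukocyte miRNAs passed. Of 7 keratinocyte miRNAs 5 were below 35 in some sample, with a summed level of 27.5 to 51.4 per 1000000 of 5S rRNA in non-ischemic and 19.2 to 27.8 in ischemic samples. Of 5 fibroblast miRNAs 2 were below 35, at a sum of 10.5 to 17.4 and 3.87 to 11.5. Among neural miRNAs, of interest because the cluster is rich in brain, miR-124a alone of 4 was below 35, at a sum of 18.5 to 30.3 and 3.80 to 11.3, and miR-9 gave no product. Both erythroid miRNAs were below 35 in some samples, at a sum of 0.309 to 1.74 and 3.57 to 7.60. Their part in the cluster's values was not tested.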

How the data were processed

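Mature miRNAs were measured in 4 non-ischemic and 3 ischemic wound edge samples, grouped by title. Per the labels, 500 ng of RNA was reverse transcribed with pooled looped primers and read on an Applied Biosystems 7900HT. Which software set Ct was not given in the sources used here. Deposited by the authors are raw Ct, the difference to 5S rRNA as log2 values, its linear ratio, and group means with their fold. The deposited log2 values are the assay's Ct subtracted from that of 5S rRNA, within 0.0001 cycles for 315 of 316 assays (18S differs in sign), and the linear ratio equals 2 to that power within 1%. Raw Ct columns carry numbers only, which the log2 table pairs with titles. Among the raw columns, 7 repeating 5S rRNA were not used. A PCR level has no molecule count behind it, so its precision comes from the spread between samples.

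miRNAs detected (Ct under 35) in 3 or more samples were tested with limma 3.58.1 in R 4.3.3 (lmFit, eBayes, two-sided, Benjamini-Hochberg over all 103), with Ct of 40 kept. The fit was tested on simulated data only with shifts larger than the differences of the tested members, so it does not cover differences of their size. Pair ratios were compared by exact permutation in SciPy 1.17.1 (two-sided on the absolute difference in means). Members and lists were chosen with earlier results of these data known. By the naming rule, members with a Ct below 35 in any sample are given in full. Later members given with values were chosen after their values were seen, and marker miRNAs come from the lists. Alternatives covered the reference, late Ct, the filter, each sample left out, the replicate number as a block and linear means.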

Additional observations from a re-analysis of the deposited data

Results flagged for a closer look

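The level of miR-369-5p in non-ischemic sample 1 was -22.00 (log2 relative to 5S rRNA), apart from the other 3 non-ischemic samples at -23.18, -23.18 and -23.05. It stood out by its gap to the nearest sample relative to the range of the group. Of 11 members and 10 pairs examined in this way 1 stood out, where chance gives about 1 in 20 groups. All its Ct values were later than 36.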

How the results depend on the processing

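With all 7 samples the count of called members was 0 under each reference (global median, snoRNA, raw Ct), filter and treatment of late Ct tried. Over samples left out in turn it ran from 0 to 1, the 1 being miR-127 without ischemic sample 3. The median difference of the tested members ran from -1.23 to -0.56 over samples left out, and was -0.26 over the 24 members fitted with no filter, beside -0.28 over all 203 miRNAs. With a Ct below 35 required in all 7 samples it was -0.37 over the 2 members left, 1 of them lower, beside -0.31 over 76 miRNAs. With the replicate number as a block it was -1.10, with 0 called. Whether the numbers pair samples was not settled. Deviations of same-numbered samples from their group means correlated at 0.028, -0.21 and -0.068 over 76 miRNAs. Those of differently numbered samples correlated at -0.316 to 0.358, so these values cannot decide it. Lower means were found for 76.7% of all tested miRNAs with 5S rRNA as reference and for 49.5% after global median normalization, where 4 of the 5 members were still lower (median -0.50). miR-379 turned to 0.30 without ischemic sample 1. No other tested member changed direction in the settings run. miR-434-3p ran from 0.23 to 0.88, miR-337 from -1.24 to -0.50 and miR-127 from -2.01 to -0.86. The mean number of detected members per sample was 4.71 at a limit of 35, 0.857 at 32 and 8.29 at 37. The ratio of miR-127 over miR-434-3p ran from -2.24 to -1.46 over samples left out, and that of miR-434-3p over miR-376a from 1.13 to 2.30. The cause of these changes was not tested. Late Ct limits what can be seen of most of the cluster.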
